A study of Mus musculus with 6 samples.

Results

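The 10 genes of hepatic acyl-CoA metabolism described here are 9 acyl-CoA thioesterase genes (Acot1, Acot2, Acot3, Acot4, Acot7, Acot8, Acot9, Acot12 and Acot13) and the acyltransferase gene Acnat2. They were taken by gene symbol from a table of 15960 genes, and all 10 were found and passed the filter on low values (at least 1 FPKM in at least 3 libraries). FPKM are fragment counts scaled to transcript length and to the mapped fragments of the library. The study sequenced liver RNA of Cyp2e1-/- mice (knockout, n = 3 libraries) and Cyp2e1+/+ mice (wild type, n = 3). Every mouse was labelled C57BL/6 and 22 weeks old, and both genotypes had received a high-fat diet for 14 weeks. The labels leave out how the Cyp2e1 allele was disrupted, the sex of the mice, and whether each library came from a single animal. The title of the series names CYP2E1 and PPARα, and the comparison asks how loss of CYP2E1 changes the liver transcriptome on this diet.

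Acyl-CoA thioesterases cut activated fatty acids into a free fatty acid and coenzyme A, opposing the step that acyl-CoA synthetases catalyse. Type I enzymes (Acot1 to Acot6 in the mouse) are close relatives encoded side by side, and each works in the cytosol, the mitochondrial matrix or the peroxisome. Type II enzymes (Acot7 to Acot13) have the same activity in a protein of another fold. Several type I genes are known in mouse liver as targets of PPARα, the nuclear receptor that senses fatty acids. ACNAT2 is a peroxisomal relative of the bile acid conjugating enzyme BAAT.

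The libraries are taken first, since the results lean on them. Cyp2e1 had 254, 247 and 271 FPKM in knockout replicates 1, 2 and 3 and 7427, 5942 and 6071 FPKM in the wild type, low in each library labelled knockout. Replicate 1 of each genotype stood apart from its group: its median absolute distance from the mean of the other libraries of its genotype was 0.22 (knockout) and 0.25 (wild type) on the log2(FPKM + 1) scale, against 0.14 to 0.17 in the remaining libraries. Results are therefore given with all libraries and with both replicates 1 left out, which leaves 2 libraries per genotype. Those libraries were left out for their distance in these same data. That narrows the spread within each genotype, so p-values of that setting are likely too small and its calls too many. The 8 hepatocyte markers summed to between 41734 and 48530 FPKM in the knockout and between 36797 and 43449 in the wild type. Most of that sum was Alb (30269 ± 3205 and 26283 ± 2215 FPKM, mean ± SD), with overlap. Higher without overlap were 4 of the 8, Cps1, Glul, Pck1 and Cyp3a11. Macrophage markers (7 genes) summed to between 64.3 and 126 FPKM in the knockout and between 121 and 137 in the wild type, with 2 lower without overlap. Of all tested genes, 5.32% were higher and 10% lower without overlap. Cholangiocyte markers (5 genes) summed to between 18.9 and 21.7 FPKM in the knockout and between 25.4 and 32.4 in the wild type. Most of that sum was Spp1 (18.3 ± 1.35 and 27.0 ± 4.44), lower without overlap. Krt19, Krt7, Epcam and Sox9 were under the filter. Of these, Krt19 had a lower mean in the knockout, and Krt7, Epcam and Sox9 had higher ones. Adipose markers in the table (3 of 7) summed to at most 0.19 FPKM in any library. None of the tested hepatocyte, macrophage or cholangiocyte markers was called with all libraries (limma). Of the cholangiocyte markers Spp1 alone was tested, and no adipose marker passed the filter. At unadjusted p under 0.05, 5 hepatocyte markers were higher, and 3 macrophage markers and 1 cholangiocyte marker were lower. Of 9968 tested genes, 403 were higher and 587 lower at that threshold. When both replicates 1 were left out, 6 of 8 hepatocyte markers rose, and 6 of 7 macrophage markers and the tested cholangiocyte marker fell. The hepatocyte markers that rose were Apoa1, Tat, Cps1, Glul, Pck1 and Cyp3a11. Alb (0.19, limma, adjusted p = 0.057) and Ttr (-0.049, adjusted p = 0.66) did not pass. In that setting 6.92% of all tested genes rose and 4.95% fell. Of the red blood cell markers, 2 of 3 were in the table. Alas2 fell from 47.9 ± 3.30 FPKM in the wild type to 9.43 ± 0.86 in the knockout (-2.23, limma, adjusted p = 2.0e-05). The globin gene Hba-a1 had means of 171 ± 55.6 (knockout) and 176 ± 108 FPKM (wild type), with overlap (0.080, limma, adjusted p = 0.98). The list summed to between 123 and 236 FPKM in the knockout and between 144 and 343 in the wild type. Markers of sinusoidal endothelium (6 genes; 57.4 to 80.3 FPKM in the knockout, 55.8 to 74.8 in the wild type), stellate cells (6 genes; 124 to 149 and 129 to 165), lymphocytes and neutrophils (7 genes; 5.39 to 18.3 and 6.30 to 22.0) and pancreas (2 of 5 in the table; 21.4 to 33.4 and 25.3 to 44.2) overlapped in their sums. Of the tested genes, 5 of 6 endothelial, 4 of 6 stellate and 3 of 3 lymphocyte and neutrophil markers had a negative difference, as had 5567 of all 9968. Without overlap, endothelial Clec4g was higher and stellate Dcn lower. With both replicates 1 left out, stellate Ecm1 rose (0.72, limma, adjusted p = 0.0020). Endothelial Lyve1 (-0.98, adjusted p = 0.020) and Ptprc of the lymphocyte and neutrophil list (-0.60, adjusted p = 0.046) fell. The part of these cell type markers in the results below was not tested. In bulk RNA, fewer cells of a type and less RNA per cell cannot be told apart.

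Because several of these genes are described in liver as PPARα targets, the 250 bases before each start in the RefSeq promoter table (GRCm38.p6) were searched on both strands for the site to which PPARα binds with its partner RXR. That site was taken as 2 copies of AGGTCA in 1 direction with 1 base between them. Of the members, 9 had an entry and Acot13 had none. Sequences are shown for the member with the largest difference (Acot3), for its neighbours Acot1 and Acot4, and for Acot12, whose level differed least. Capitals mark the stretch closest to the site, and for Acot4 and Acot12 that stretch alone is given.
Acot3: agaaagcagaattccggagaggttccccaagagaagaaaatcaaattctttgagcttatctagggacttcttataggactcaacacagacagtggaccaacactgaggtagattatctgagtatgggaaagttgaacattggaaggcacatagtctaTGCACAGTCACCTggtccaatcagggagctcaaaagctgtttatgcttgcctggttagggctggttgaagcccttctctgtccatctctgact
Acot1: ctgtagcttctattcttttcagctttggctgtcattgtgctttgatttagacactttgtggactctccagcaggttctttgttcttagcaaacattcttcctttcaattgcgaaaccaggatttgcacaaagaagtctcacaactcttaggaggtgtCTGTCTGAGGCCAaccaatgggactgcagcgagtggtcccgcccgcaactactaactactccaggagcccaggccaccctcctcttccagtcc
Acot4: TGACCTTTGGCCG
Acot12: TGACCTCTCACCT
The Acot3 and Acot1 windows are chr12:84051894-84052143 and chr12:84009252-84009501, on the plus strand. Those of Acot4 and Acot12 are chr12:84038129-84038378 and chr13:91741271-91741520, also on the plus strand. Both end past the annotated gene starts, 84037254 and 91741326, and their marked stretches lie inside the genes. Positions below count from the start of the promoter entry. The Acot12 stretch, which begins at position -110, departed from the site at 1 of its 12 fixed letters, and 0.484% of 32851 windows in the table came that close. The Acot4 stretch, which begins at position -13, departed at 2 letters (3.24% of windows came within 2). The Acot3 and Acot1 stretches departed at 4 letters, and 74.5% of windows were at least that close. A match is a likeness of letters within this window.

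Across the whole transcriptome 76 of 9968 tested genes passed the test, or 0.762% (limma on log2(FPKM + 1), Benjamini-Hochberg adjusted p under 0.05). Higher calls were 0.472% of tested genes and lower calls 0.291%. Among the 10 members 1 rose, Acot3, and none fell; 6 had a positive difference and 4 a negative one. At unadjusted p under 0.05 there were 4 higher members (Acot1, Acot3, Acot8 and Acnat2) and 0 lower ones, where 4.04% of all tested genes were higher. The median difference of the members was 0.38 on the log2(FPKM + 1) scale, beside -0.028 for all tested genes. In 3 members (Acot1, Acot3 and Acnat2) every knockout library lay above every wild type library, which held for 5.32% of tested genes. In 1, Acot9, every knockout library lay below, which held for 10% of tested genes. Leaving out both replicates 1 raised the calls to 1183 genes (11.9%). Then 6 members rose and 1 fell, where 6.92% of all tested genes rose and 4.95% fell, and the hepatocyte and macrophage markers moved as given above.

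**Figure D1:**
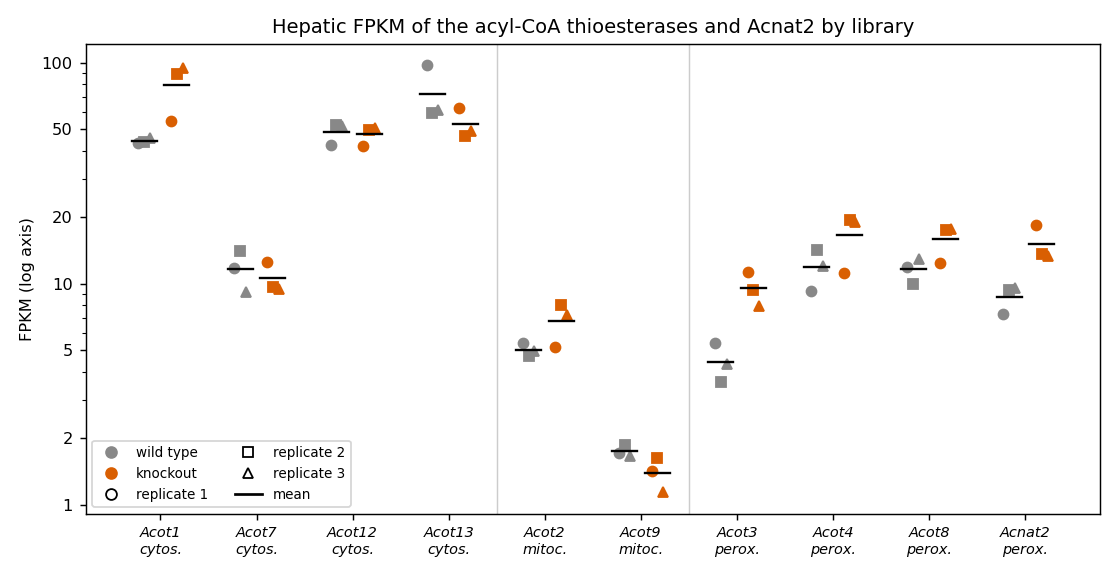
FPKM (log axis) of each gene in each library, wild type in grey and knockout in orange, with the replicate number as the marker shape and the group mean as a bar; genes are ordered by the compartment of the encoded enzyme. The knockout points of Acot3 (7.93 to 11.3 FPKM) and Acnat2 (13.4 to 18.4) lie above all wild type points, and replicate 1 is their highest knockout library, while for Acot1, Acot2, Acot4 and Acot8 it is the lowest.

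In the wild type, levels per transcript length ran over a wide range. Acot13 (72.7 ± 21.6 FPKM; SD, n = 3), Acot12 (48.8 ± 5.36) and Acot1 (44.3 ± 1.33) were the highest, and the ranges of Acot12 and Acot1 overlapped. Acot4 (11.9 ± 2.48), Acot7 (11.7 ± 2.47) and Acot8 (11.7 ± 1.53) did not differ beyond their spread, and Acnat2 followed at 8.74 ± 1.23 with overlap with Acot4 and Acot7. Acot2 (5.02 ± 0.34) and Acot3 (4.45 ± 0.90) overlapped. Acot9 was the lowest at 1.75 ± 0.10. In the knockout the order changed at the top, where Acot1 (79.4 ± 21.7) had a higher mean than Acot13 (52.8 ± 8.57), although knockout replicate 1 held more Acot13 (62.5) than Acot1 (54.6).

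Among the peroxisomal members, Acot3 encodes a type I thioesterase of long-chain acyl-CoAs (gene 171281, chromosome 12, 84052144 to 84060400, GRCm38). It stood at 11.3, 9.42 and 7.93 FPKM in knockout replicates 1, 2 and 3 and at 5.39, 3.59 and 4.36 in the wild type. The groups did not overlap, and knockout replicate 1 was the highest library. The difference was 0.95 on the log2(FPKM + 1) scale (SE 0.18, 95% interval 0.56 to 1.35; limma, adjusted p = 0.045), higher in 3 of 3 knockout libraries, and the ratio of the group means was 2.15. The call lay near the threshold. It was lost without knockout replicate 1, 2 or 3 (limma, adjusted p = 0.055, 0.21 and 0.066) and without wild type replicate 2 or 3 (0.20 and 0.17), while the difference stayed between 0.84 and 1.08. Leaving out both replicates 1 gave a difference of 0.96 (limma, adjusted p = 0.0046).

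Acnat2, which encodes a peroxisomal acyltransferase related to BAAT, showed the same order of knockout libraries as Acot3 (gene 209186, chromosome 4, 49374458 to 49408151). It stood at 18.4, 13.7 and 13.4 FPKM in the knockout, against 7.32, 9.36 and 9.54 in the wild type. The groups did not overlap, with the highest value in knockout replicate 1 and the lowest in wild type replicate 1. The difference of 0.73 (SE 0.16, 95% interval 0.36 to 1.09) did not pass over all genes (limma, adjusted p = 0.10). It was smaller with both replicates 1 left out, 0.48, and passed (limma, adjusted p = 0.024).

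Acot4 encodes a peroxisomal type I enzyme that also acts on succinyl-CoA. Its levels were 11.2, 19.5 and 19.2 FPKM in the knockout and 9.31, 14.3 and 12.1 in the wild type. Knockout replicate 1 lay inside the wild type range, and the other knockout libraries lay above it. The difference was 0.43 (95% interval -0.066 to 0.92; limma, adjusted p = 0.58) with all libraries and 0.52 with both replicates 1 left out (limma, adjusted p = 0.020).

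Acot8 encodes the broad type II thioesterase of the peroxisome. Its levels were 12.5, 17.5 and 17.8 FPKM in the knockout and 11.98, 10.02 and 13.03 in the wild type. Again knockout replicate 1 lay inside the wild type range and replicates 2 and 3 lay above it. The difference was 0.41 (95% interval 0.038 to 0.78; limma, adjusted p = 0.44), and 0.59 with both replicates 1 left out (limma, adjusted p = 0.024).

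**Figure D2:**
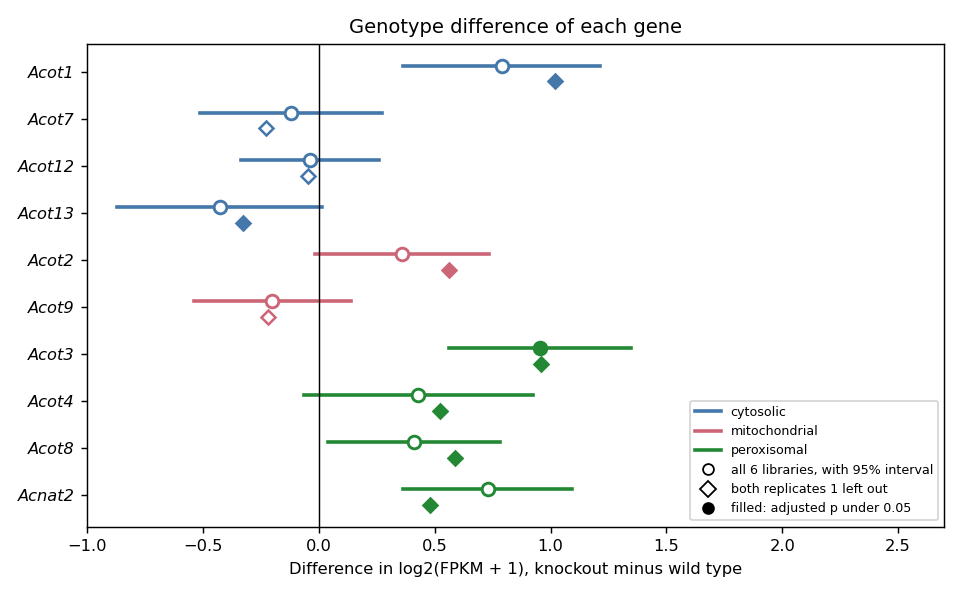
Difference in log2(FPKM + 1), knockout minus wild type, for each gene: circles with 95% intervals use all 6 libraries and diamonds leave out both replicates 1, filled where the adjusted p was under 0.05 and coloured by compartment. Of the circles, that of Acot3 at 0.95 is filled, against 7 filled diamonds, of which Acot13 lies below 0.

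Among the cytosolic members, Acot1 encodes the type I thioesterase known for its strong induction by fasting and PPARα ligands (gene 26897, chromosome 12, 84009502 to 84017670). It stood at 54.6, 88.8 and 94.7 FPKM in the knockout, against 43.3, 43.8 and 45.8 in the wild type. The wild type libraries lay close together, knockout replicate 1 lay just above them, and knockout replicates 2 and 3 were far higher. With all libraries the difference was 0.79 (SE 0.19, 95% interval 0.36 to 1.21) and did not pass (limma, adjusted p = 0.13). It was 1.03 without knockout replicate 1 (limma, adjusted p = 0.0019, where 2.12% of tested genes were called) and 1.02 with both replicates 1 left out (limma, adjusted p = 1.1e-04).

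Acot12 encodes the acetyl-CoA hydrolase of the liver cytosol, and its mean was close between the genotypes. It stood at 42.0, 49.9 and 50.7 FPKM in the knockout, against 42.7, 52.3 and 51.6 in the wild type. In both genotypes replicate 1 was the lowest library. The difference was -0.037, with a 95% interval of -0.33 to 0.26 (limma, adjusted p = 0.97).

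Acot13, also called Them2, encodes a small type II thioesterase found in the cytosol and at mitochondria. Its levels were 62.5, 46.5 and 49.3 FPKM in the knockout and 97.6, 59.1 and 61.4 in the wild type. Replicate 1 was the highest library of each genotype, and knockout replicate 1 lay above wild type replicates 2 and 3. The difference was -0.43 (95% interval -0.87 to 0.014; limma, adjusted p = 0.52). Without both replicates 1 it was -0.33 and passed (limma, adjusted p = 0.031), in the direction opposite to Acot1.

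Acot7 encodes a thioesterase best known from brain, and in liver it stood at 12.6, 9.70 and 9.53 FPKM in the knockout, against 11.8, 14.2 and 9.22 in the wild type. The groups overlapped throughout. The difference was -0.12, with a 95% interval of -0.51 to 0.27 (limma, adjusted p = 0.91).

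Among the mitochondrial members, Acot2 encodes the type I enzyme of the matrix (gene 171210, chromosome 12, 83987861 to 83993877). Its levels were 5.19, 8.05 and 7.22 FPKM in the knockout and 5.39, 4.71 and 4.97 in the wild type. Knockout replicate 1 again lay among the wild type libraries, with replicates 2 and 3 above them. The difference was 0.36 (95% interval -0.016 to 0.74; limma, adjusted p = 0.53), and 0.56 with both replicates 1 left out (limma, adjusted p = 0.028). Acot9, a type II enzyme of the matrix, stood at 1.42, 1.63 and 1.14 FPKM in the knockout, against 1.71, 1.86 and 1.67 in the wild type. The knockout libraries were lower without overlap, but the difference of -0.20 had a 95% interval of -0.54 to 0.14 (limma, adjusted p = 0.74). By the estimate of depth described under processing, about 18 to 30 fragments a library stood behind Acot9, against 872 to 1924 behind Acot1.

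The members differed in how knockout replicate 1 related to the other knockout libraries. In Acot3 and Acnat2 it stood at 130% and 136% of the mean of knockout replicates 2 and 3, and in Acot7 and Acot13 at 131% each. In Acot1, Acot2, Acot4 and Acot8 it stood at 59.5%, 68.0%, 57.8% and 70.8% of that mean, and in Acot9 and Acot12 at 103% and 83.6%. The 6 genes that rose with both replicates 1 left out thus included both high and low values in knockout replicate 1. Knockout replicate 1 is a single library, so this contrast has no test.

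**Figure D3:**
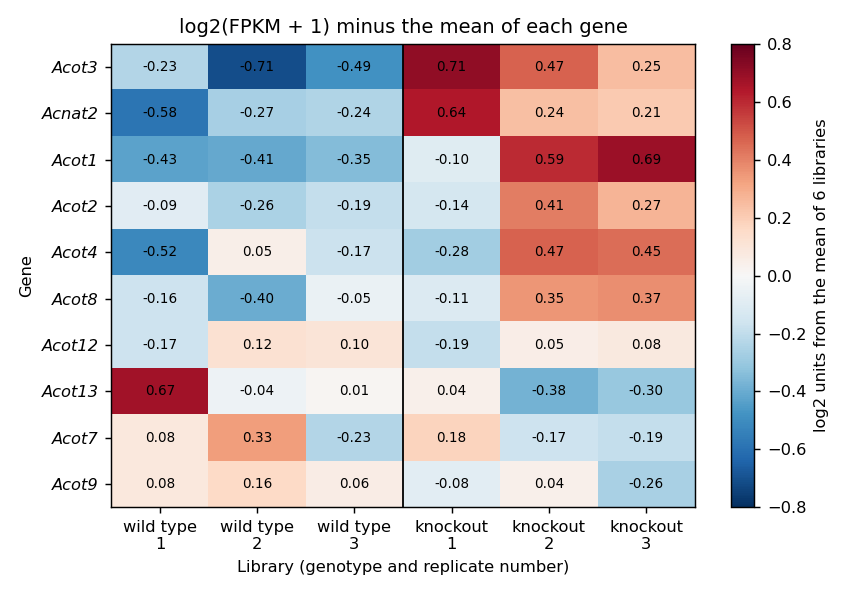
Heat map of log2(FPKM + 1) minus the mean of each gene over the 6 libraries, with genes as rows, libraries as columns and the value printed in each cell. Acot3 and Acnat2 have their highest values in knockout replicate 1 (0.71 and 0.64), while Acot1, Acot2, Acot4 and Acot8 are below their mean there (-0.098 to -0.28) and above it in knockout replicates 2 and 3.

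Summed by compartment, the peroxisomal members (Acot3, Acot4, Acot8 and Acnat2) stood apart between the genotypes in every library. Their sum was 53.4, 60.2 and 58.3 FPKM in the knockout and 34.0, 37.2 and 39.0 in the wild type, a ratio of the means of 1.56. In knockout replicate 1 this sum held high values of Acot3 and Acnat2 and low values of Acot4 and Acot8, and still lay above every wild type library. The cytosolic sum (Acot1, Acot7, Acot12 and Acot13) was 172, 195 and 204 FPKM in the knockout and 195, 169 and 168 in the wild type, and the genotypes overlapped. The mean ratio was 1.07 (log2 0.10), with Acot1 higher and Acot13 lower in the knockout means. The mitochondrial sum (Acot2 and Acot9) was 6.61, 9.68 and 8.36 FPKM in the knockout and 7.10, 6.57 and 6.64 in the wild type, also with overlap (log2 ratio of the means 0.28; from 0.14 without knockout replicate 2 to 0.41 without knockout replicate 1). The overlap in these sums came from replicates 1: with both left out, the cytosolic and mitochondrial sums were also higher in the knockout without overlap, at log2 ratios of 0.24 and 0.45, beside 0.64 for the peroxisomal sum. The sums describe the data and were not tested, since the members were chosen with earlier results known. Acot7 and Acot13 have been placed in both the cytosol and mitochondria. With them counted as mitochondrial, the log2 ratio of the means was -0.35 for the mitochondrial sum in place of 0.28, and 0.45 for the cytosolic sum in place of 0.10.

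**Figure D4:**
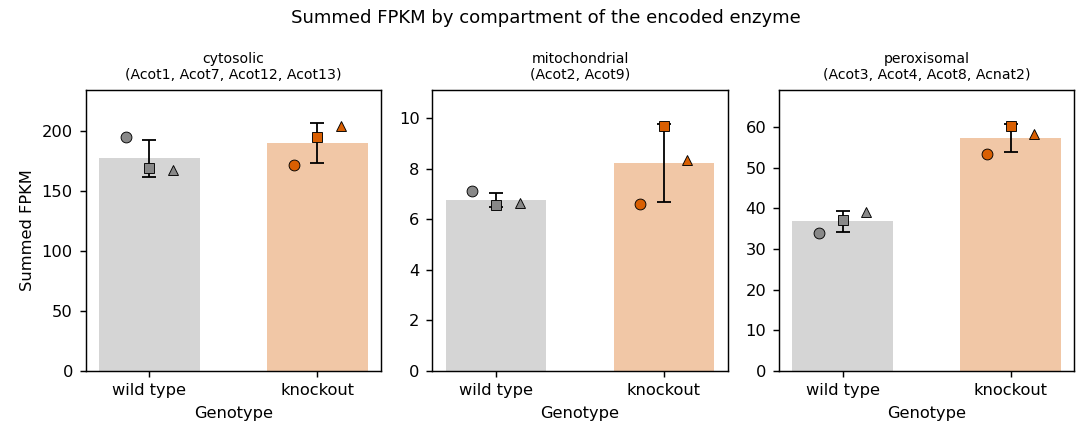
Summed FPKM of the members by compartment and genotype: bars are means of 3 libraries, error bars the SD, and points the libraries by replicate number. The genotypes are apart in the peroxisomal panel (at least 53.4 FPKM against at most 39.0) and overlap in the other panels, where they too are apart if the replicate 1 points are left aside.

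Acot2, Acot1, Acot4, Acot3, Acot5 and Acot6 lie in this order on chromosome 12, and Acot5 was not analysed here. Acot6, another peroxisomal type I gene, stood at 0.82 ± 0.27 FPKM in the knockout, against 0.73 ± 0.11 in the wild type, under the filter. The tested genes within 200 kb of this cluster, Numb, Riox1, Mideas and Ptgr2, had adjusted p-values of 0.91, 0.70, 0.97 and 0.94 (limma). On chromosome 4, Acnat1, the nearest relative of Acnat2, stood at 22.8 ± 2.36 FPKM in the knockout, against 18.4 ± 4.20 in the wild type (limma, adjusted p = 0.62). Baat, which encodes the enzyme that joins bile acids to glycine or taurine, stood at 106 ± 2.5 FPKM in the knockout, against 90.6 ± 4.06 in the wild type, without overlap (limma, adjusted p = 0.55). Also tested within 150 kb of the start of Acnat2 were Mrpl50 and Zfp189, with adjusted p-values of 0.51 and 0.99 (limma).

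**Figure D5:**
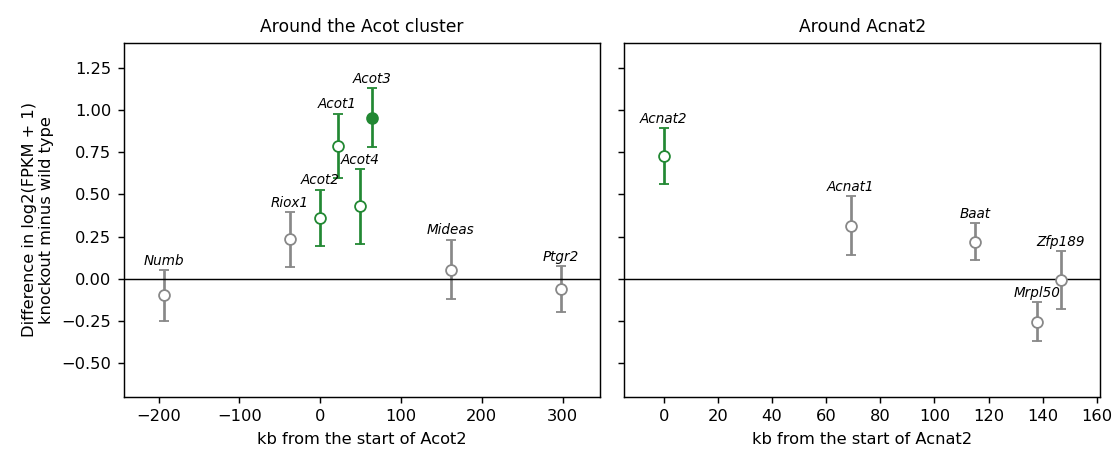
Difference in log2(FPKM + 1), knockout minus wild type, with its SE, against distance in kb from the start of Acot2 (left) and of Acnat2 (right); members are green, other tested genes grey, and a filled point has an adjusted p under 0.05. The Acot genes lie between 0.36 and 0.95, and Acot3 is the filled point.

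Shared sequence limits how far neighbours can be told apart. Of the 31-base words of the Acot1 transcript, 29.2% also occur in Acot2, 12.04% in Acot3 and 6.29% in Acot4. Acot3 shares 23.4% of its words with some other gene, and 7.82% of its words with Acot1. Acnat2 shares 38.7% with Acnat1, and Acot9 shares 36.9% with Acot10. Acot7, Acot8, Acot12 and Acot13 share none. The labels do not say how fragments that fit several genes were assigned, so the values of Acot1 to Acot4, Acot9 and Acnat2 carry that uncertainty. The part of shared fragments in the results was not tested.

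Further thioesterases and acyltransferases were read from a list of 14 genes, of which 11 were in the table and 9 tested. None rose and none fell with all libraries (limma; 1 was lower at unadjusted p under 0.05), and the median difference was 0.036. Acot11, also called Them1, a thioesterase of thermogenic fat, stood at 3.97 ± 0.57 FPKM in the knockout, against 6.55 ± 0.75 in the wild type. It was lower without overlap (difference -0.60; limma, adjusted p = 0.15) and fell with both replicates 1 left out (-0.55; limma, adjusted p = 0.044). Them4 had means of 9.34 ± 1.06 (knockout) and 10.2 ± 1.23 FPKM (wild type), and Them6 had 2.01 ± 0.63 and 2.81 ± 1.09. The lysosomal palmitoyl-protein thioesterase genes Ppt1 (13.6 ± 1.08 and 13.2 ± 0.60) and Ppt2 (14.4 ± 1.46 and 12.98 ± 1.23) overlapped between the genotypes. So did the cytosolic acyl-protein thioesterase genes Lypla1 (58.1 ± 1.64 and 60.6 ± 4.91) and Lypla2 (18.5 ± 2.61 and 16.8 ± 2.86). Them5 stood at 0.10 ± 0.11 and 0.093 ± 0.16 FPKM, under the filter.

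Acyl-CoA synthetases, which run the opposite reaction, did not pass: none of 15 tested rose or fell (median 0.017; limma; at unadjusted p under 0.05, 2 were higher and 1 lower). The most abundant were Slc27a2 (863 ± 123 FPKM in the knockout, 737 ± 76.6 in the wild type) and Acsl1 (423 ± 74.9 and 392 ± 77.3). Without both replicates 1, 2 of 15 rose, beside 6.92% of all tested genes. None of 20 tested genes of peroxisomal beta-oxidation and related peroxisomal functions passed with all libraries (limma, median 0.041). At unadjusted p under 0.05, 2 were higher. The most abundant were Scp2, with 1554 ± 106 (knockout) and 1576 ± 110 FPKM (wild type), and Phyh, of peroxisomal alpha-oxidation, with 1271 ± 56.9 and 1387 ± 66.5. After leaving out both replicates 1, 7 of 20 rose and none fell, beside 6.92% of all tested genes that rose. Among the 7 were Hacl1, of alpha-oxidation, and Pex11a, of peroxisome biogenesis.

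Among 26 other PPARα targets 3 rose and none fell with all libraries (median 0.12), where 0.472% of all tested genes rose: the fatty acid omega-hydroxylase genes Cyp4a10 (518 ± 30.1 FPKM in the knockout, 209 ± 22.1 in the wild type), Cyp4a14 (596 ± 12.8 and 188 ± 54.8) and Cyp4a31 (9.95 ± 2.59 and 2.99 ± 0.43). Their adjusted p-values were 8.8e-04, 0.0020 and 0.0093 (limma). At unadjusted p under 0.05 (limma), 8 of the 26 were higher and 2 lower, where 403 and 587 of 9968 tested genes were. Without overlap 7 were higher and 5 lower, where 5.32% and 10% of all tested genes were. Without both replicates 1, 11 rose and 3 fell, beside 6.92% and 4.95% of all tested genes. Ppara itself stood at 35.5 ± 10.9 FPKM in the knockout, against 32.7 ± 11.5 in the wild type (limma, adjusted p = 0.95). Of 4 Nudt genes read together, Nudt7 fell. It encodes a peroxisomal CoA diphosphatase, an enzyme that cuts CoA and its esters. Nudt19, also peroxisomal, had means of 20.7 ± 1.44 (knockout) and 20.6 ± 4.23 FPKM (wild type), with overlap (0.022, limma, adjusted p = 0.99). Nudt12 had 15.96 ± 3.04 and 16.5 ± 3.44, also with overlap. Nudt7 stood at 152 ± 19.3 FPKM in the knockout, against 271 ± 3.23 in the wild type, without overlap (difference -0.84, SE 0.13, limma, adjusted p = 0.016). With both replicates 1 left out the difference was -0.73 (limma, adjusted p = 3.1e-04). Nudt8, the mitochondrial form, had means of 20.2 ± 7.87 (knockout) and 16.01 ± 2.56 FPKM (wild type) with overlap, and rose with both replicates 1 left out (0.73; limma, adjusted p = 0.0019). None of 10 genes that bind acyl-CoA or fatty acids passed (median -0.050; limma; 0 at unadjusted p under 0.05). Fabp1, the most abundant with Scp2, had 4470 ± 1735 FPKM in the knockout and 4143 ± 372 in the wild type, with 2468 FPKM in knockout replicate 1. When both replicates 1 were left out, 2 of the 10 rose, Fabp1 (0.47; limma, adjusted p = 0.0014) and Acbd6 (0.45, adjusted p = 0.040).

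The tested genes nearest to Acot3 in pattern, by the root mean square difference of log2(FPKM + 1) over the 6 libraries after centring each gene, were Fam134b (0.14), Slco1a4 (0.15), Slc16a5 (0.16), Mup8 (0.16) and Cyp8b1 (0.16). Nearest to Acnat2 were Fmo2 (0.11), Hapln4 (0.11), Fkbp5 (0.13), Tmprss2 (0.14) and Mup8 (0.14). Mup8 was among the 5 nearest of both, and no thioesterase was among the 5 nearest of either. The distances describe 6 libraries and carry no test.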

How the data were processed

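Liver RNA of 6 libraries, 3 per genotype, was sequenced after extraction with a Qiagen miRNeasy kit and TruSeq library preparation, per the labels' protocols. The submitters' processing notes name HISAT and mm10. The deposited values are FPKM per gene, per the file headers; the labels name no program that made them. Genotypes were compared with limma 3.58.1 in R 4.3.3, with a mean trend of the variance. It used log2(FPKM + 1) of the 9968 genes that reached 1 FPKM in 3 or more libraries, Benjamini-Hochberg adjusted over all of them, with a threshold of 0.05; it was tested on simulated data. Differences are knockout minus wild type, and this scale understates changes of low genes. P-values measure the spread between these libraries, which may be technical. No count model was used. Low values of short transcripts put the depth at 9280000 to 12120000 fragments a library. At that depth 68.9% to 73.4% of them lay within 0.15 of a whole fragment step. A depth fixed beforehand would give 30% by chance. The depth was picked for its fit to these same values, so that 30% is no fair comparison. These numbers are estimates. Positions and promoters came from RefSeq (GRCm38, the assembly of mm10), transcripts from GENCODE M21; protein identity between members was not computed. A result that names a withheld item is not reported here. Deviations from the group mean correlated between libraries of equal replicate number at 0.30, 0.20 and 0.157, all over 0.1, so a fit with the replicate as a block was an alternative. Pairs of unequal number ran from -0.298 to 0.212, the highest being knockout replicate 3 with wild type replicate 2. The pairing by number is thus uncertain. Members, gene lists and tests were chosen with earlier results of these data known. All members were named. Of the further thioesterases each gene in the table was named, and of the other lists the genes past the threshold or, with none, the 2 most abundant. Ppara, Alas2, Hba-a1, Clec4g, Dcn, Nudt12, Nudt19, the hepatocyte and cholangiocyte markers and genes given with both replicates 1 left out were named after their values were seen.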

Additional observations from a re-analysis of the deposited data

How the results depend on the processing

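Of 9968 genes 76 were called, and 1 of the 10 members, Acot3. The numbers of genes and members were 64 and 0 with a pseudocount of 0.1, 70 and 1 with 0.5, 32 and 0 with no filter on low values, 36 and 0 with at least 5 FPKM in 3 libraries, 70 and 1 after rescaling to a common sum, and 72 and 0 after quantile normalization. They were 1151 and 6 with sample quality weights and 1183 and 7 with both replicates 1 left out. Leaving out single libraries gave 29 to 211 genes and 0 to 1 members, the called member being Acot1 without knockout replicate 1 and Acot3 without wild type replicate 1. With the replicate as a block 72 genes and 1 member were called, Acot3 (limma, adjusted p = 0.040), and no member changed its call. Acot3 lost its call in 9 of 15 alternatives and kept its direction in all 15. Its adjusted p ranged from 7.2e-04 with sample quality weights to 0.21 without knockout replicate 2. The sign changed in 2 members on leaving out single libraries: Acot12, from -0.13 to 0.047, and Acot7, from -0.27 to 0.014. Acot9 was under the filter of 5 FPKM and has no value there. The log2 ratio of the compartment sums was 0.10 for the cytosol and 0.45 without Acot7 and Acot13. It was 0.24 with both replicates 1 left out, a setting chosen for the sums after seeing the data. Without the most abundant cytosolic member, Acot13, it was 0.39. Acot13 made up 34.3% of the sum on average and Acot1 33.2%. Acot13 was lower and Acot1 higher in the knockout means, and no setting left out Acot1. For mitochondria the log2 ratio was 0.28, -0.32 without the most abundant member and -0.35 with Acot7 and Acot13 added. These shifts follow from the members summed. The cause of the other changes was not tested. Depth limits Acot9 most, at about 18 to 30 fragments a library.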
